A study of Mus musculus with 4 samples.

Results

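The Forkhead (Fox) genes on the autosomes were represented by 174 of the 83122 array probes, which belonged to 34 genes of 17 lettered subclasses. A probe counted as a Fox probe when the gene name in the scanner file was a Fox symbol, alone or as the partner of a shared promoter, and its listed position was autosomal. Of 41 autosomal Fox genes in RefSeq, 34 had such a probe, 2 of them (Foxf1 and Foxo3) under the older symbols Foxf1a and Foxo3a. Foxd3, Foxe1, Foxi3, Foxk2, Foxn3, Foxr1 and Foxs1 had none under a current Fox symbol. Neighbouring probes of the same name at most 1000 bp apart formed a region, which gave 37 Fox regions among 19133 in all. A region was measured when at least 2 of its probes were usable, and 34 Fox regions of 32 genes met this, of 14835 measured autosomal regions.

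The series asked how DNA methylation in mouse tissues changes with age. The older sample was intestinal genomic DNA of 32-month-old mice of the inbred strain C57BL/6, labelled with the red dye Cy5. It was compared with intestinal genomic DNA of 3-month-old C57BL/6 mice, labelled with the green dye Cy3. Both were hybridised together to 2 custom Agilent arrays, one for chromosomes 1 to 8 and another for chromosomes 9 to 19, X and Y, with 549 probes of chromosome 9 and 5 of chromosome 17 on the array of chromosomes 1 to 8. Each age was 1 sample, and the dyes were not swapped on a further array, so age and dye cannot be told apart and no spread between animals can be given. The sources used here do not give the sex or number of the animals or how methylated DNA was enriched. Ratios are therefore reported as ratios of array signal, and each SD describes the probes of a region, not animals.

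Fox proteins are transcription factors that bind DNA through a winged-helix domain, the forkhead box, and their genes are named by subclass letter and number. In the gut, Foxa proteins open chromatin in the endoderm and its epithelium, Foxf1, Foxf2 and Foxl1 act in the mesenchyme beneath the epithelium, and FoxO proteins are held out of the nucleus when insulin signalling activates Akt. Most other Fox genes are known for roles in tissues other than the gut, such as the eye, ear, thymus or ovary.

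Foxf2 and Foxl2 were called higher at 32 months than at 3 months, and the sequences of their probes are shown because the results turn on them. Foxf2 acts in gut and palate mesenchyme, and Foxl2 maintains granulosa cells of the ovary. The probes are written as the array files list them, 5′ to 3′, with each CpG dinucleotide in capitals. The strand is not listed in the files.
Foxf2 probe 1: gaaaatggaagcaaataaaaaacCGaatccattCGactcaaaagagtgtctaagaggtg
Foxf2 probe 2: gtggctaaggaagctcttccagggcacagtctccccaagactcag
Foxf2 probe 3: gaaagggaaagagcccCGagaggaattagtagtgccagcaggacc
Foxf2 probe 4: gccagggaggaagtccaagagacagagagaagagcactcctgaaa
Foxl2 probe 1: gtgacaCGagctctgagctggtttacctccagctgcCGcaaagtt
Foxl2 probe 2: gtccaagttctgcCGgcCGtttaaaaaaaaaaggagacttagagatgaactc
Foxl2 probe 3: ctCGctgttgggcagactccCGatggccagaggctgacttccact
Foxl2 probe 4: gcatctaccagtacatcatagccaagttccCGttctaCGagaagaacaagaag

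Foxf2 (chr13:31632322-31633189, in the files' coordinates, whose genome build the sources used here do not give) was measured by 4 promoter probes. Their signals were 2940, 33600, 48000 and 18500 at 32 months, against 559, 9340, 10500 and 6050 at 3 months. All 4 probes were brighter at 32 months, and after centring on the array median the log2 ratios were 2.53, 1.99, 2.33 and 1.75. The region median was 2.16 ± 0.35 (SD over 4 probes), or 4.47-fold. The 2 probes that hold a CpG had 2.53 and 2.33, and the 2 without had 1.99 and 1.75. Whether the ratio goes with CpG content was not tested, and 4 probes are too few to tell.

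Foxl2 (chr9:98764127-98765288) had 3 promoter probes and a probe inside the gene. The signals were 2240, 2700, 4850 and 5080 at 32 months, against 2080, 712, 1070 and 581 at 3 months. The ratio differed along the region, from 0.25 at the probe farthest upstream through 2.06 and 2.32 to 3.27 at the inside probe. The median was 2.19 ± 1.26 (SD over 4 probes), or 4.57-fold, and every probe was above 0.

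**Figure D1:**
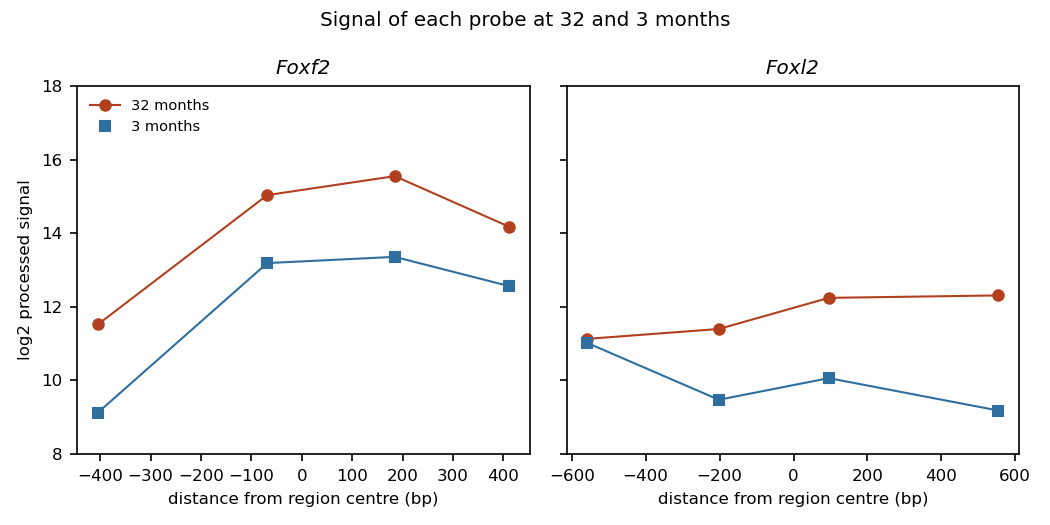
Processed signal on a log2 axis of each probe of Foxf2 and Foxl2 at 32 months (red circles) and 3 months (blue squares), against the distance in bp from the centre of the region. The 32-month signal lies above the 3-month signal at all 4 probes of each gene, and the traces of Foxl2 nearly meet at the probe farthest upstream.

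To be called higher, a region needed a median log2 ratio of 1 or more with all usable probes above 0; a call of lower needed -1 or less with all below 0. Foxf2 and Foxl2 were the 2 Fox regions called higher of 34 measured, or 5.88%, beside 2.05% of all measured autosomal regions. No Fox region was called lower, beside 0.519% of all autosomal regions. Counts this small cannot be read as particular to the family, and no test was made, since there was 1 sample per age.

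Without the requirement that probes share a side, 5 Fox regions had a median of at least 1, or 14.7%, beside 3.03% of autosomal regions. Foxl2, Foxf2, Foxj1 and Foxe3 were among them. No Fox region had a median of -1 or less, beside 0.836% of autosomal regions. The median over the 34 Fox regions was 0.19, with quartiles at -0.096 and 0.76, and that over all autosomal regions was 0.02. A median above 0 was found for 24 Fox regions, or 70.6%, beside 52.6% of autosomal regions, and 22 of the 34 had probes on both sides of 0. With normexp 31 Fox regions were above 0, and the median of all autosomal regions was 0.11.

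**Figure D2:**
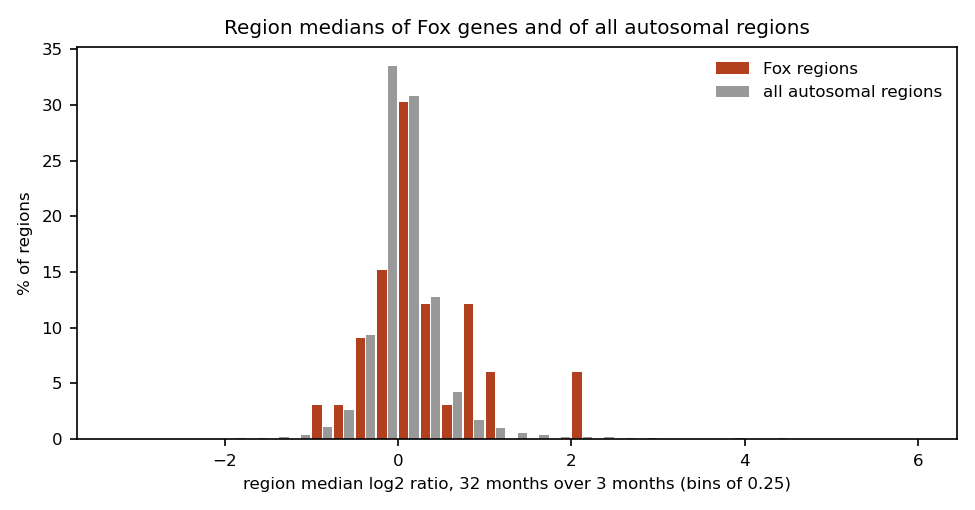
Share of regions in bins of 0.25 of the median log2 ratio of 32 over 3 months, for 33 Fox regions (red) and all 14835 measured autosomal regions (grey). Both sets centre near 0, and the Fox bars at 0.75 and above include Foxf2 and Foxl2 between 2 and 2.25.

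The arrays differed in how far Fox regions lay above 0, and Fox regions were split evenly between them. On the array of chromosomes 9 to 19, 15 of 17 Fox regions had a median above 0, or 88.2%, beside 62.2% of all autosomal regions there. On the array of chromosomes 1 to 8 this held for 9 of 17, or 52.9%, beside 43.3%. Both called Fox regions, and 4 of the 5 with a median of at least 1, were on the array of chromosomes 9 to 19. Of all autosomal regions there, 2.76% were called higher, beside 1.36% on the array of chromosomes 1 to 8. A median of at least 1 was found for 3.94% and 2.15% of them, so the series at large leaned the same way. The median Fox value was 0.23 on that array, beside 0.09 for all its autosomal regions, and 0.04 on the array of chromosomes 1 to 8, beside -0.03.

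Calls were also more frequent among bright regions in the series at large, and Fox regions were often bright. Autosomal regions were divided into 4 equal classes by mean log2 signal over both ages. In the brightest class lay 12 of the 34 Fox regions, of which 2 were called higher, beside 5.66% of that class, and 4 had a median of at least 1, beside 8.47%. The next class held 14 Fox regions, of which 0 were called higher, beside 1.19%, and 1, Foxj1, had a median of at least 1, beside 1.86%. The 5 Fox regions in the dimmest class and the 3 in the class above it all had medians between 0.10 and 0.47. The part of brightness in the Fox counts was not tested.

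At the level of single probes, 157 Fox probes were usable, 144 of them well above background at both ages, and 17 were dim at both ages. A further 9 usable probes were dim at 3 months only and 4 at 32 months only, so their ratios are bounds. A log2 ratio of at least 1 was found for 36 usable Fox probes, or 22.9%, beside 6.43% of usable autosomal probes. A ratio of -1 or less was found for 3, beside 3.06%. Probes of a gene lie close together and are not replicates, and the 36 came from 17 genes, with up to 9 in a gene. Ratios of at least 2 occurred in 18 probes of 7 genes, beside 2% of usable autosomal probes, and 9 of the 18 lay in Foxf2, Foxl2, Foxj1, Foxl1, Foxa2 and Foxb2. Without the gene that holds the most such probes, 27 of 145 usable Fox probes reached 1, or 18.6%, and 9 reached 2, or 6.21%.

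The probes past a ratio of 1 were spread over both main annotations. They made up 24 of 94 promoter probes, or 25.5%, beside 6.19% of all autosomal promoter probes, and 11 of 47 probes inside genes, or 23.4%, beside 6.95%. Among 16 probes in promoters shared with a divergent neighbour there was 1, or 6.25%, beside 6.05%. By CpG content of the probe itself, 12 of 55 Fox probes without a CpG passed 1, or 21.8%, beside 4.82%. With 1 or 2 CpG 20 of 81 did, or 24.7%, beside 6.94%, and with 3 or more 4 of 21, or 19.0%, beside 9.68%. These shares include the gene that holds 9 of the probes past 1. They weigh neighbouring probes of a gene separately and do not describe the genes evenly.

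**Figure D3:**
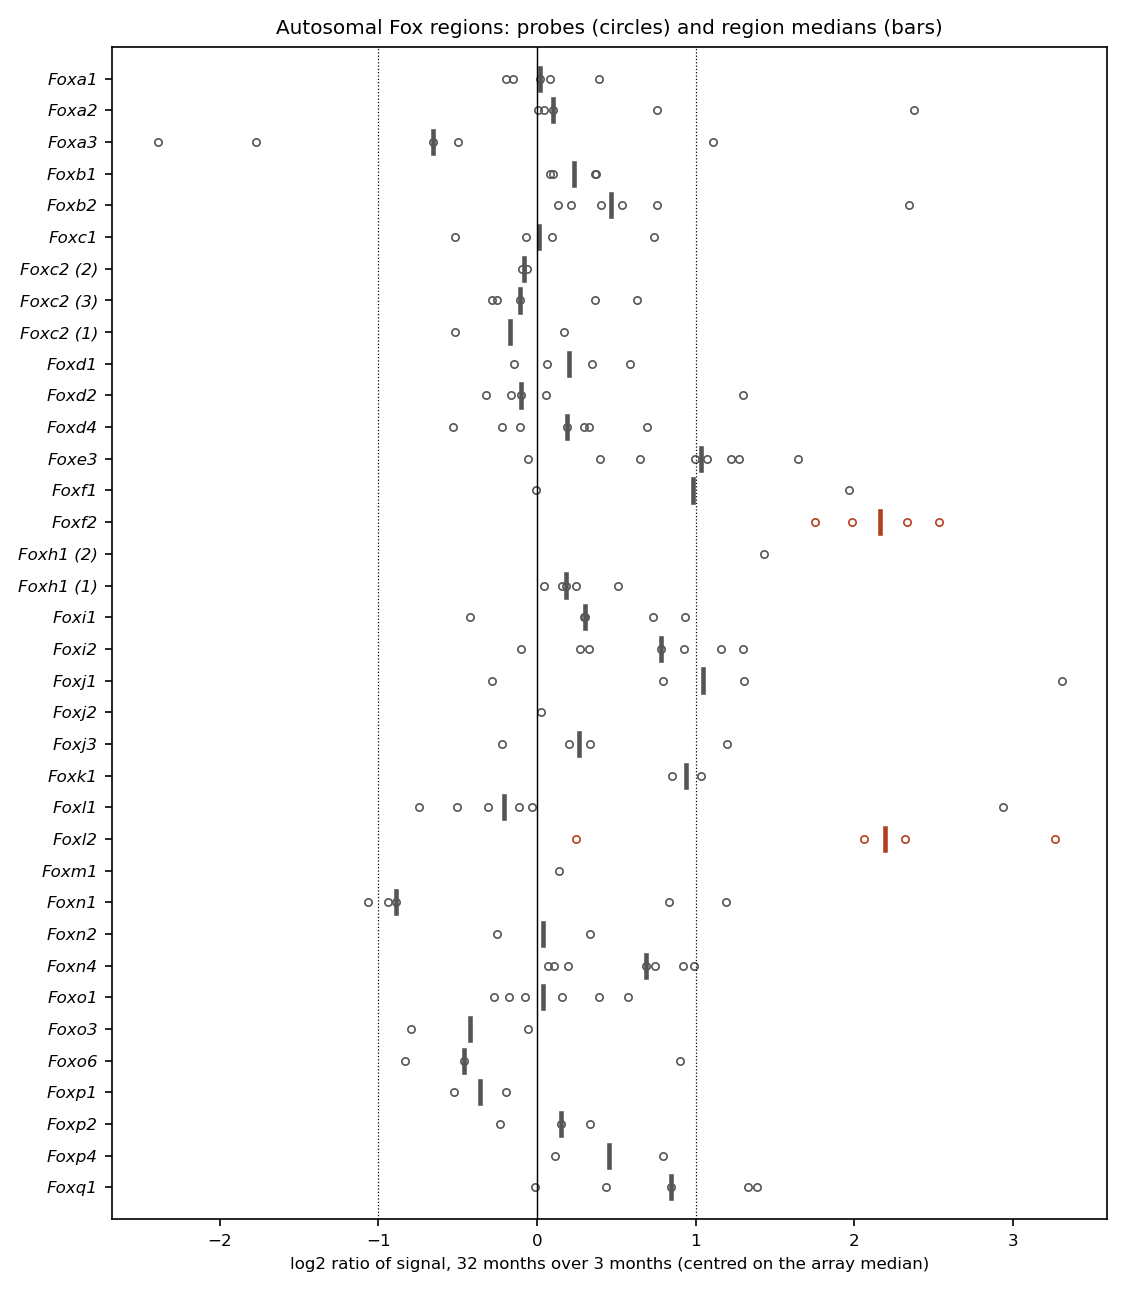
Centred log2 ratio of 32 over 3 months of the usable probes of 33 Fox genes (circles) and the region median (bars), by gene from Foxa1 at the top to Foxq1 at the bottom, with called regions in red and dotted lines at -1 and 1. Bars are drawn for 33 measured regions, and numbers in parentheses separate regions of the same gene. The probes of Foxa3 reach -2.39 and the highest probe of Foxj1 is at 3.31.

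The Foxa genes, which encode pioneer factors of endoderm and intestinal epithelium, gave 3 measured regions and no call. Foxa1 had signals of 271, 2030, 588, 63.9 and 739 at 32 months, against 228, 2110, 720, 69.5 and 932 at 3 months. No probe of Foxa1 differed by as much as 2-fold, and its median was 0.02 ± 0.23 (SD over 5 probes). Foxa2 had 17700, 557, 166, 325 and 275 at 32 months, against 3400, 539, 97.8, 323 and 256 at 3 months. Its inside probe had a ratio of 2.38, whereas its 4 promoter probes lay between 0.0045 and 0.76, and the median was 0.10 ± 1.01 (SD over 5 probes).

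Foxa3, the member best known from liver, was the lowest of the subclass. Its signals were 11600, 4130, 730, 2080 and 19700 at 32 months, against 18200, 1910, 3820, 7070 and 27700 at 3 months. The ratios were -0.65, 1.11, -2.39, -1.77 and -0.50, and the median was -0.65 ± 1.34 (SD over 5 probes), or -0.17 with normexp. Foxa3 was the only Fox gene with a probe at -2 or less, and the probe next to it along the gene was among those above 1. These neighbours, probe 2 inside the gene (chr7:18181992-18182036) and probe 3 in the promoter (chr7:18182348-18182397), are shown with CpG in capitals.
Foxa3 probe 2: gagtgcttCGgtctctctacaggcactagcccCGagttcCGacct
Foxa3 probe 3: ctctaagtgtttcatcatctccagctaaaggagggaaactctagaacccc

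Among the genes of the gut mesenchyme, Foxf2 was called and Foxf1 and Foxl1 were not. Foxf1, which mediates Hedgehog signals in the mesenchyme, had 2 promoter probes (chr8:123969449-123970098) with 35500 and 1640 at 32 months, against 9050 and 1640 at 3 months. The ratio was 1.97 at the first probe and -0.0044 at the second, and the median was 0.98 ± 1.39 (SD over 2 probes). Foxf1 was called higher with loess, at 1.03, and with normexp, at 1.24.

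Foxl1, which marks subepithelial mesenchymal cells beside the crypts, had 6 probes (chr8:124012917-124014142). Signals were 1010, 176, 81.9, 1240, 142 and 165000 at 32 months, against 1030, 190, 137, 1530, 201 and 21500 at 3 months. The first 5 probes had ratios between -0.75 and -0.03, and the last, inside the gene, had 2.94. The region median was -0.21 ± 1.36 (SD over 6 probes) with 0.03 under normexp and 0.20 as a mean over probes, and it hides that step, which is set by the last probe (chr8:124014098-124014142), shown with CpG in capitals.
Foxl1 probe 6: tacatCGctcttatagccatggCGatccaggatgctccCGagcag

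**Figure D4:**
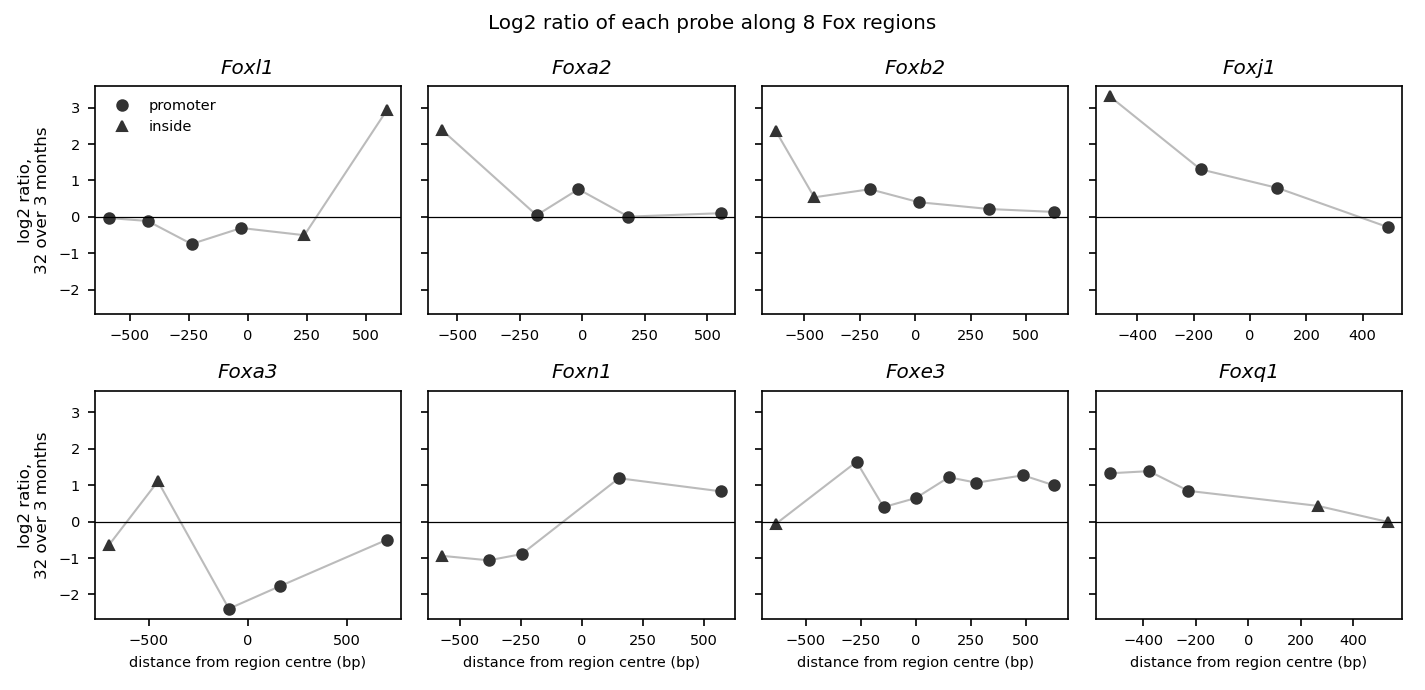
Centred log2 ratio of 32 over 3 months of each probe of 8 Fox regions, against distance in bp from the region centre, with circles for promoter and triangles for inside probes. The regions were chosen after their values were seen; Foxl1, Foxa2, Foxb2 and Foxj1 each have an outermost inside probe above 2, and Foxa3 and Foxn1 have probes on both sides of 0.

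The FoxO genes, which encode effectors of insulin and Akt signalling in stress resistance and metabolism, had a subclass median of -0.43 over 3 regions, the lowest with the main settings. With normexp it was 0.07, above that of the Foxp subclass. Foxo1 had 6 probes with signals of 119, 913, 1140, 144, 539 and 2270 at 32 months, against 125, 1030, 1020, 96.3, 650 and 1730 at 3 months. No Foxo1 probe differed by as much as 2-fold, and the median was 0.04 ± 0.33 (SD over 6 probes). Foxo3 had 1570 and 2190 at 32 months, against 1800 and 4180 at 3 months, with a median of -0.43 ± 0.52 (SD over 2 probes). With normexp the Foxo3 value was 0.30, so its direction depended on the background correction. Foxo6 had 14600, 9800 and 212 at 32 months, against 7800, 17400 and 291 at 3 months. Its inside probe was at 0.90 and its promoter probes at -0.83 and -0.46, which gave a median of -0.46 ± 0.91 (SD over 3 probes).

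The genes upstream of FoxO proteins were described through a list of 25 genes. It joined insulin, PI3K and Akt pathway genes with the other FoxO regulators Sirt1, Stk4, Skp2, Ywhaz and Ywhab. Of the 25 genes, 19 were measured in 24 regions. None was called higher, beside 2.05% of autosomal regions, or lower, beside 0.519%, which at 24 regions is close to those shares. Of the 24 regions 8 were above 0, beside 52.6% of autosomal regions, and the list median was -0.07, beside 0.02 for all autosomal regions. Values ranged from -0.92 at a region of Igf2, which encodes a growth factor ligand of the pathway, to 0.55 at a region of Pik3r1, the regulatory subunit of PI3K. The kinases Akt1 and Akt2 were both at -0.07.

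Gut transcription factors and Hedgehog or Bmp genes that act beside Foxa, Foxf and Foxl1 were described through a list of 28 genes, 26 of them measured in 29 regions. There were 4 regions called higher, or 13.8%, beside the 2.05% of autosomal regions, and 0 called lower, beside 0.519%. They belonged to Bmp2, a secreted signal (3.21), Gata4, a zinc finger factor of proximal intestine (2.04), Ihh, the Hedgehog ligand of the epithelium (1.93), and Sox17, an endoderm factor (1.26). Medians past 1 without a call were found at Onecut1 (2.80), a Bmp4 region (2.69), Nkx3-2 (1.56) and Barx1 (1.10), and the other Bmp4 region was at -0.01. Of the 29 regions 17 were above 0, beside 52.6% of autosomal regions, and the list median was 0.09, beside 0.02. The list was chosen with earlier results of these data known.

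Foxe3, Foxj1 and Foxk1 lay close to a ratio of 1. Foxe3, a lens factor, had 8 probes (chr4:114423651-114424963) with 516, 94100, 10200, 32400, 13900, 8670, 14400 and 12000 at 32 months, against 535, 30000, 7710, 20600, 5950, 4120, 5940 and 6010 at 3 months. All 7 promoter probes were brighter at 32 months, with ratios between 0.40 and 1.64, and the inside probe was at -0.06. The Foxe3 median was 1.03 ± 0.54 (SD over 8 probes), and the inside probe kept it from a call, except with normexp, where it was called at 1.36.

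Foxj1, which drives the formation of motile cilia, had 17900, 3700, 225 and 65.2 at 32 months, against 1990, 1650, 143 and 87.6 at 3 months. Its ratios fell off along the region, with 3.31 at the inside probe and 1.30, 0.79 and -0.29 at the promoter probes, and the median was 1.05 ± 1.51 (SD over 4 probes). Without centring the Foxj1 median was 0.91, as it was with the scanner software's own ratio. With normexp it was 0.92, with the median of each array block removed 0.94 and with loess 0.96. All of these lie below the threshold of 1. Foxk1, a regulator of muscle progenitors and metabolism, had 1780 and 783 at 32 months, against 986 and 381 at 3 months. Both ratios were near a doubling, at 0.85 and 1.03, and the median was 0.94 ± 0.13 (SD over 2 probes). With loess Foxk1 reached 1.00 and was called, and with normexp it was at 0.66.

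Foxq1, Foxi2 and Foxn4 followed with medians between 0.69 and 0.85. Foxq1, a regulator of mucin in gastric surface cells, had promoter probes at 1.33, 1.39 and 0.85 and inside probes at 0.43 and -0.01. Foxi2 had promoter ratios of 0.27 to 1.30 and -0.10 inside, with a median of 0.78 ± 0.51 (SD over 7 probes). Foxn4, a retinal factor, showed the reverse layout, with 4 inside probes between 0.69 and 0.99 and 3 promoter probes between 0.07 and 0.19. Its median was 0.69 ± 0.39 (SD over 7 probes), with every probe above 0.

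Foxn1, which directs the thymic epithelium, had the lowest Fox region median with the main settings. Its 5 probes (chr11:78202559-78203744) had 1140, 8910, 20400, 442 and 655 at 32 months, against 2410, 20500, 41700, 213 and 405 at 3 months. The first 3 probes were dimmer at 32 months, at -0.94, -1.06 and -0.89, and the last 2 were brighter, at 1.19 and 0.83. The median was -0.89 ± 1.09 (SD over 5 probes). It was 0.06 with normexp and -0.17 as a mean over probes, so neither its direction nor its place as the lowest is settled. The other measured Foxn gene, Foxn2, was at 0.04.

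The other subclasses held smaller differences. Foxb1, a factor of the developing hypothalamus, was at 0.23 with all 4 usable probes above 0. Foxb2 was at 0.47 ± 0.82 (SD over 6 probes), with 922 at 32 months, against 200 at 3 months, at an inside probe with a ratio of 2.34. Foxc1, which acts in the eye and the vessel wall, was at 0.01. The 3 regions of Foxc2, a factor of lymphatic valves, lay between -0.17 and -0.08, and between 0.04 and 0.10 with normexp, and 2 of them are in a promoter shared with Mthfsd. In the Foxd subclass Foxd1, a marker of kidney stroma, was highest at 0.20 ± 0.32 (SD over 4 probes) and Foxd2 lowest at -0.10, with Foxd4 at 0.19. With normexp Foxd2 was at 0.30, the highest of the 3. Foxd1 was dim, with 54, 71.5, 1060 and 169 at 32 months, against 65.8, 62, 1120 and 124 at 3 months, and its probe 1 was not well above background at 32 months nor its probe 2 at 3 months.

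Foxh1, a partner of Smad proteins in Nodal signalling, was at 0.18 in the promoter it shares with Ppp1r16a. An inside probe of Foxh1 that stood as a region of its own had 1860 at 32 months, against 759 at 3 months, a ratio of 1.43 that could not be summarised with 1 probe. Foxi1, a factor of inner ear and ion-transporting cells, was at 0.30. Foxj3, in a promoter shared with AA415398, was at 0.27. In the Foxp subclass Foxp4 was highest at 0.45 and Foxp1, a factor of B cell development, lowest at -0.36, with Foxp2, known for its role in vocalisation, at 0.15. With normexp Foxp1 was at 0.00056 and Foxp2 at -0.03, so their directions are not settled. Foxj2 and Foxm1, which drives mitotic genes in cycling cells such as crypt progenitors, had 1 usable probe each and no region value. The Foxm1 probe had 15600 at 32 months, against 14100 at 3 months, a ratio of 0.14, and the Foxj2 probe was at 0.02.

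Fox genes that lie side by side on a chromosome did not always share a ratio. On chromosome 13, Foxq1, Foxf2 and Foxc1 lie within 249 kb with no other measured region between them, and their medians were 0.85, 2.16 and 0.01. On chromosome 8, Foxf1, Foxc2 and Foxl1 lie within 44.7 kb. There the medians were 0.98 at Foxf1, -0.08, -0.10 and -0.17 at the regions of Foxc2 and -0.21 at Foxl1. The Foxc2 regions and Foxl1 thus lay close to each other, and the Foxf1 value is the midpoint of probes at 1.97 and -0.0044. On chromosome 4, Foxd2 and Foxe3 lie within 18.5 kb, at -0.10 and 1.03.

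RefSeq promoter sequences (assembly GRCm38.p6) were available for 21 of the 34 Fox genes, as 25 windows from 250 bases before to 50 bases after a gene's start. The windows of Foxf2 (chr13:31625566-31625865, plus strand) and Foxl2 (chr9:98955357-98955656, plus strand) are shown because these genes were called higher. Those of Foxa1 (chr12:57546062-57546361, minus strand) and Foxo1 (chr3:52268087-52268386, plus strand), whose ratios lay near 0, are shown beside them. Each is written on the gene's own strand, 5′ to 3′, with CpG in capitals.
Foxf2 promoter: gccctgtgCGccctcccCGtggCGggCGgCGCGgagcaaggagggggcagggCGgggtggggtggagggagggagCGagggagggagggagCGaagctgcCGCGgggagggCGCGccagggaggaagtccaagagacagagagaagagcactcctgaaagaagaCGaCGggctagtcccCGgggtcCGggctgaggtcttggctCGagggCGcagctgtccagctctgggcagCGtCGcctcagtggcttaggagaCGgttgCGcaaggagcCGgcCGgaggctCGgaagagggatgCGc
Foxl2 promoter: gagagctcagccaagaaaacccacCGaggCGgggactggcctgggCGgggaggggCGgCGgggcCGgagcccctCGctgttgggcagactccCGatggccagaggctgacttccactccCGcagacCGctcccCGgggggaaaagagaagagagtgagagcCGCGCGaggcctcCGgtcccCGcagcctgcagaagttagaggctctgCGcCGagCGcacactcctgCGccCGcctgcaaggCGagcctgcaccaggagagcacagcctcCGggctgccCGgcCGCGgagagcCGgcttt
Foxa1 promoter: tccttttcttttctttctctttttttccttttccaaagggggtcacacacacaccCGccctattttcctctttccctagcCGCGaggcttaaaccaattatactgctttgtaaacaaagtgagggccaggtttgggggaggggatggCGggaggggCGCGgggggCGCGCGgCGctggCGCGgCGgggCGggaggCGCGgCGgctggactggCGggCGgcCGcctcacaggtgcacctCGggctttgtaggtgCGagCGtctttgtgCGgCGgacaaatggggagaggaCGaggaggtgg
Foxo1 promoter: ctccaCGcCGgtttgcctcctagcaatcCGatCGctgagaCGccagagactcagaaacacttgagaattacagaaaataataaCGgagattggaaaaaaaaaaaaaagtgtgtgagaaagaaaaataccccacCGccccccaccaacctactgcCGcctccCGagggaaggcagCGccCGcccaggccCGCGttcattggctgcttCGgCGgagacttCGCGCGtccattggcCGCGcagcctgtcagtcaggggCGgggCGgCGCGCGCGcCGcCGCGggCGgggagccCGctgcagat

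All 4 windows are rich in CpG, and their CpG counts do not follow the ratios. Foxf2 and Foxl2 each had 27 CpG, Foxa1 had 26 and Foxo1 had 31. Over the 25 Fox windows the median was 22 CpG, from 5 to 44, beside 7 over all 32851 windows of the table. The hexamer CCCGGG, which reads the same on both strands and is the recognition sequence of the enzymes SmaI and XmaI, occurred in 11 Fox windows, or 44.0%, beside 13.5% of all windows. These shares were not matched for the CpG count of the windows. The hexamer was present once in the windows of Foxf2 and Foxl2 and absent from those of Foxa1 and Foxo1. It also occurred at Foxa2, Foxc1 and Foxd2, whose ratios of 0.10, 0.01 and -0.10 lay near 0 as well. The median ratio was 0.06 over 10 genes with the hexamer in a window and 0.23 over 10 genes without it, with ranges of -0.89 to 2.19 and -0.43 to 0.78. Of the genes with both a window and a region value, those at 1 or more (Foxf2, Foxl2 and Foxe3) and the lowest pair (Foxn1 and Foxa3) all held the hexamer, which is a description of few genes with no test.

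Probe letters were found in the promoter window of the same gene for 19 Fox probes of 16 genes, which places them relative to the gene's start. Probe 4 of Foxf2 covers positions -136 to -92 and had a ratio of 1.75. Probe 3 of Foxl2 covers -178 to -134 and had 2.32. Both are on the gene's own strand and can be read in the windows printed above. Of the other probes so placed, those of Foxe3 at -61 to -17 and of Foxi2 at -207 to -160 had ratios of 1.64 and 1.16, and Foxn1 at -129 to -77 had -0.89. The Foxe3 window held a further probe, at -184 to -140, with only 0.40. For Foxo1 at -197 to -138, Foxo3 at -62 to -18 and Foxd1 at -204 to -152 the ratios were 0.58, -0.06 and 0.06. The array annotates this Foxo3 probe, and a Foxd4 probe at -231 to -172 that was dim at both ages, as inside the gene. Its promoter and inside labels thus do not always match the RefSeq start. The remaining usable probes so placed lay between -0.42, at a probe of Foxi1, and 0.76, at a probe of Foxb2.

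The calls of Foxf2 and Foxl2 held under all 10 alternative ways of making region values, with Foxf2 between 2.02 and 2.66 and Foxl2 between 1.97 and 2.19. Several alternatives left both values as they were and so could not change these calls. These were the deposited value table, a smaller gap between probes, and the inclusion or exclusion of dim probes. Among these settings Foxf1, Foxe3 and Foxk1 gained a call under loess or normexp only, as given beside their values.

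**Figure D5:**
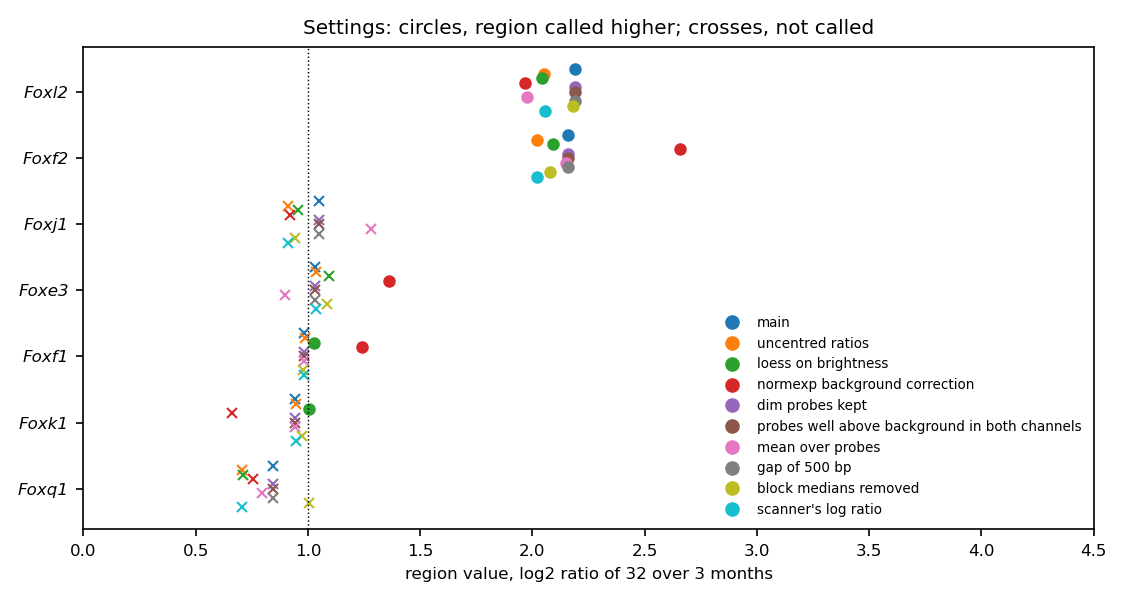
Region value, as the log2 ratio of 32 over 3 months, of 7 Fox genes under the main settings and the alternatives (colours), with circles where the region was called higher and crosses where it was not. Foxf2 and Foxl2 are circles throughout, and the dotted line marks a ratio of 1.

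In the series as a whole, 72.5% of probes on the array of chromosomes 1 to 8 were well above background at 32 months and 71.2% at 3 months, and 70.1% and 71.4% on the other array. On the X chromosome 20 of 508 measured regions were called lower at 32 months, or 3.94%, and 3 higher, and 2 of 9 Y regions were called higher. The labels do not give the sex of the animals, and its part in the Fox ratios was not tested.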

How the data were processed

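Genomic DNA of intestine at 32 months (Cy5) and 3 months (Cy3) was hybridised to 2 arrays. The submitters' processing notes name Agilent Feature Extraction 9.1.3.1. Intensity values were deposited as its processed signals, with background subtracted and a linear scaling between dyes, per the file headers. The deposited log10 ratio of the scanner software served as an alternative. The value table equalled the processed signals in 100% of spots. Both deposited files of an array were identical, so each channel was used once. DNA extraction used phenol and chloroform, per the labels' protocols. For probe positions the genome build is not given in the sources used here.

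For each probe the log2 ratio of red (32 months) over green (3 months) processed signal was computed and centred on its array median, 0.0044 on the array of chromosomes 1 to 8 and -0.14 on the other. Control, outlier and unplaced spots were left out, and a probe was usable when well above background in at least 1 channel. A region's value is the median of at least 2 usable probes. Folds are 2 to the power of the centred ratio. Where the 3-month channel was dim, a bound was taken against the higher of the probe's own signal there and the lowest signal well above background, which was the probe's own signal for every Fox probe concerned. No test between the ages was run, since there is 1 sample per age, and the number of arrays limits the precision. Genes named are all Fox genes but 1, which is counted but not reported here by name, value or figure, with per-probe signals for those called, past 1 or -1 in the median, highest or lowest in a subclass of 3 or more genes, or tied to the gut, FoxO signalling or proliferation; further probe signals were added after values were seen. The members and lists were chosen with earlier results of these data known. Alternatives numbered 12. Python 3.11.15, pandas 2.3.3, numpy 2.4.6, matplotlib 3.10.9, R 4.3.3 and limma 3.58.1 were used, with a normexp offset of 50 and a loess span of 0.3.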

Additional observations from a re-analysis of the deposited data

How the results depend on the processing

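The count of Fox regions called higher was 2 with the main settings and 2 under 8 of the 12 alternatives. It was 4 with loess on brightness (beside 1.91% of autosomal regions), 5 with normexp background correction (2.82%), 4 with a 1.5-fold threshold (4.52%) and 5 without agreement among probes (3.03%). The count called lower was 0 under all 12. The median over Fox regions lay between 0.08, without centring, and 0.22, with means over probes, and normexp moved the median of all autosomal regions to 0.11. No called value reversed. Of 336 region values under alternatives, 325 moved by less than the SD over probes and 11 by more, 7 of these under normexp. Normexp changed the sign of 9 of 34 regions, 8 of them to above 0: Foxn1 (0.06), Foxo3 (0.30), Foxd2 (0.30), Foxl1 (0.03), Foxp1 (0.00056) and the 3 of Foxc2 (0.04 to 0.10), with Foxp2 (-0.03) to below 0. The other alternatives changed 0 to 3 signs each. The cause was not tested. No paired analysis was possible because there is 1 sample per age and each array covers other chromosomes. For the same reason no replicate could be left out. Signal over background limits 17 Fox probes that were dim at both ages, 9 dim at 3 months only and 4 dim at 32 months only.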

Other observations

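Further Fox genes were on the arrays under older or shared names and so lie outside the set described above. Foxn3, a checkpoint-related repressor listed as Ches1, had medians of 0.05 and -0.18 in its 2 measured regions. Foxs1, listed as Fkhl18, was at -0.07 ± 0.22 (SD over 5 probes). On the X chromosome, Foxo4, a FoxO member listed as Mllt7, was at -0.48 ± 0.69 (SD over 6 probes), and Foxp3, the factor of regulatory T cells, which shares a promoter region with Ppp1r3f, was at -0.21 ± 0.15 (SD over 4 probes). None of these regions was called.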
